A study of Mus musculus with 12 samples.

Results

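Il6 and 9 other inflammatory genes were followed across 12 arrays of primary mouse hepatocytes: the cytokines Il6, Il1b and Tnf, the chemokines Cxcl1, Cxcl2, Cxcl5, Ccl2, Ccl7 and Ccl20, and the enzyme gene Nos2. All probes whose RefSeq accession led to 1 of these 10 symbols were taken, which gave 11 of 41174 probes and 10 of 17016 genes with a symbol. Ccl7 had 2 probes and the other genes 1 each. The hepatocytes came from C57BL/6 mice with both copies of PGC-1alpha (PGC-1alpha+/+, below +/+) or without the gene (PGC-1alpha-/-, below -/-). PGC-1alpha is a transcriptional coactivator encoded by Ppargc1a. All cultures received an adenovirus (moi 5) with either the hairpin RNA labelled shTLS or a control hairpin, and there was no uninfected group. The medium of all groups held 10% FBS, 100 nM dexamethasone, a glucocorticoid, and 100 nM insulin. The cells were harvested 24 h after infection. Each of 6 mice, 3 per genotype, gave 1 control and 1 shTLS culture, so that each of the 4 groups held 3 arrays. The number of a culture (1, 2 or 3) marks the mouse within a genotype, the independent assay and the slide, which therefore cannot be told apart. Each group always took the same position on a slide, which likewise cannot be told apart from the group.

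Interleukin 6 is a secreted cytokine that signals to hepatocytes through its receptor Il6ra, the shared subunit Il6st (gp130) and STAT3, and drives the acute phase response of the liver. Interleukin 1 beta and tumour necrosis factor are early inflammatory cytokines, made mainly by macrophages. The Cxcl chemokines followed here attract neutrophils, Ccl2 and Ccl7 attract monocytes, Ccl20 attracts cells with the receptor Ccr6, and Nos2 makes nitric oxide. Transcription of these genes is classically induced through NF-kappaB, and glucocorticoids such as dexamethasone dampen it.

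The promoters of 6 of the 10 genes were found in the RefSeq table of assembly GRCm38.p6. The 250 bases before the transcription start of the 4 in which a kappaB match was found are given here, because this is a sequence that Il6 shares with chemokines whose pattern across the cultures differed from its own. Capitals mark the kappaB letters searched, GGG, any 2 bases and TTTCC, on either strand. Il6 lies on chr5:30012864-30013113 (plus strand), Cxcl1 on chr5:90890995-90891244 (plus), Cxcl2 on chr5:90903649-90903898 (plus) and Ccl20 on chr1:83116516-83116765 (plus), each window ending at the base before the start.
Il6: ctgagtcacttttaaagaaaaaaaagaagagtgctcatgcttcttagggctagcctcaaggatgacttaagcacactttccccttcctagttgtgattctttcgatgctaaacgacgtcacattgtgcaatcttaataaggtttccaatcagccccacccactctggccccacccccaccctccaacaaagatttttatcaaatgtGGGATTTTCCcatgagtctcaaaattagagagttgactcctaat
Cxcl1: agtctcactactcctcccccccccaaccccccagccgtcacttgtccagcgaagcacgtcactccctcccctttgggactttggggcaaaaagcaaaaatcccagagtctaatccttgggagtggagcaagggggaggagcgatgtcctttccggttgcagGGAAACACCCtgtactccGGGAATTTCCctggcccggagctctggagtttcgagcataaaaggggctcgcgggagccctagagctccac
Cxcl2: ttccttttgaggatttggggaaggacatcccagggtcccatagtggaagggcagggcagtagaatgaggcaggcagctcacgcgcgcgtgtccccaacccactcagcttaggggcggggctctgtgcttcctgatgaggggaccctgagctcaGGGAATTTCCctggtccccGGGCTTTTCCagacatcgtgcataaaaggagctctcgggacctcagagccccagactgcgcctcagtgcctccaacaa
Ccl20: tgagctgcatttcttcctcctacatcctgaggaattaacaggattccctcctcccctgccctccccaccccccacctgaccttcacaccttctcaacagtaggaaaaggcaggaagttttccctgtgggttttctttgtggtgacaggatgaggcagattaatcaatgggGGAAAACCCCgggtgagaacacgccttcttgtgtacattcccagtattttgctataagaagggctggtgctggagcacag

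Il6 held GGGATTTTCC at 44 to 35 bases before its start. Cxcl1 held GGGAATTTCC at 71 to 62 bases and, on the other strand, GGGTGTTTCC at 89 to 80 bases. Cxcl2 held GGGAATTTCC at 97 to 88 and GGGCTTTTCC at 78 to 69 bases, and Ccl20 held GGGGTTTTCC on the other strand at 80 to 71 bases. The letters were thus in 4 of the 6 windows searched, against 464 of 32851 promoter windows of the same length (1.41%). In the windows of Il1b and Tnf these letters were not found. The AP-1 letters TGANTCA, which read the same on both strands, were in 1 of the 6 windows, that of Il6, at 249 to 243 bases, against 6.75% of all windows. The C/EBP letters TTNNGNAA were in 4 of 6 windows (Il6, Il1b, Tnf and Cxcl2) against 36.8%, and TATAAA was in 2 of 6 (Il1b and Tnf) against 12.4%. A match describes the letters and does not show that a factor binds. Matches of different motifs did not overlap. Il6, Cxcl1, Cxcl2 and Cxcl5 lie on chromosome 5, and Ccl2, Ccl7 and Nos2 on chromosome 11.

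Values below are log2 of the quantile-normalized array signal. A difference of 1 is therefore a doubling, and levels of different genes, which have different probes, are not compared. Per array, 22753 to 26694 probes were well above background, and the 75th percentile of the signal before normalization ranged from 810 to 1064 with the control hairpin and from 344 to 635 with shTLS. Ppargc1a gave a signal well above background on all 12 arrays, 8.67 to 9.71 in -/- and 8.23 to 10.99 in +/+ cells. Where in Ppargc1a the deletion lies is not given in the labels, and this signal is no check of the genotype. The hepatocyte marker Alb was well above background on all 12 arrays, as were Il6, Cxcl1, Ccl2, Ccl7 and Ccl20. Because these are bulk cultures, a change in the number of cells of a type and a change in RNA per cell cannot be told apart.

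Il6 was the member that separated the hairpins. In +/+ control cultures 1, 2 and 3 it read 5.61, 7.58 and 6.37, and in the +/+ shTLS cultures of the same mice 9.09, 10.85 and 10.25. In -/- control cultures it read 6.56, 7.86 and 6.14, and in -/- shTLS cultures 9.01, 9.82 and 10.45. The lowest of the 6 shTLS arrays lay above the highest of the 6 control arrays, in both genotypes. Within single mice the shTLS culture exceeded the control culture by 3.47, 3.27 and 3.88 in +/+ cells and by 2.45, 1.96 and 4.32 in -/- cells.

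Fitted over all 24981 tested probes, Il6 rose with shTLS by 3.54 in +/+ cells (SE 0.65, 95% interval 2.12 to 4.96, 11.6-fold, limma adjusted p = 0.0273). The difference in -/- cells was 2.91 (SE 0.65, interval 1.48 to 4.33, 7.50-fold), which was not called without a block (adjusted p = 0.0821) and was called with the replicate number as a block (adjusted p = 0.00551) or with the mouse as a block (adjusted p = 0.00275). Averaged over genotypes Il6 rose by 3.22 (SE 0.46, interval 2.22 to 4.23, adjusted p = 0.00286). The response did not differ detectably between genotypes: it was smaller by 0.63 in -/- cells in the fit, with an SE of 0.91 and an interval of -2.65 to 1.38, where negative values mean a smaller response in -/- cells (adjusted p = 1.00). The -/- cells differed from +/+ cells in Il6 by 0.33 with the control hairpin (interval -1.09 to 1.76) and by -0.30 with shTLS (interval -1.73 to 1.12), neither called.

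The call in +/+ cells without a block had little margin. It was lost without +/+ control array 1 (adjusted p = 0.122) or 3 (0.0664), without +/+ shTLS array 2 (0.110) or 3 (0.125), with no filter on background (0.0672), with only the +/+ groups fitted (0.142), and without all 4 arrays of number 2 (3.68, adjusted p = 0.206, with 0 of all probes called in that comparison). The average over genotypes kept its call with each of the 12 arrays left out in turn (adjusted p 0.00216 to 0.0115) and without the arrays of number 2 (3.53, adjusted p = 0.0367). When arrays were scaled on the 7 spike-in probes in place of quantiles, the median over all probes moved to -0.86 in +/+ and -0.80 in -/- cells. On that scale Il6 was still higher with shTLS in each of the 6 mice, by 2.13 to 3.06 in +/+ and by 1.12 to 3.60 in -/- cells, and the average of 2.42 was called (adjusted p = 0.00408). With normexp background correction of the scanner values in place of the deposited values the differences were smaller, 2.47 in +/+ cells (adjusted p = 0.0473), 2.06 in -/- cells (adjusted p = 0.124) and 2.26 in the average (adjusted p = 0.00464).

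**Figure D1:**
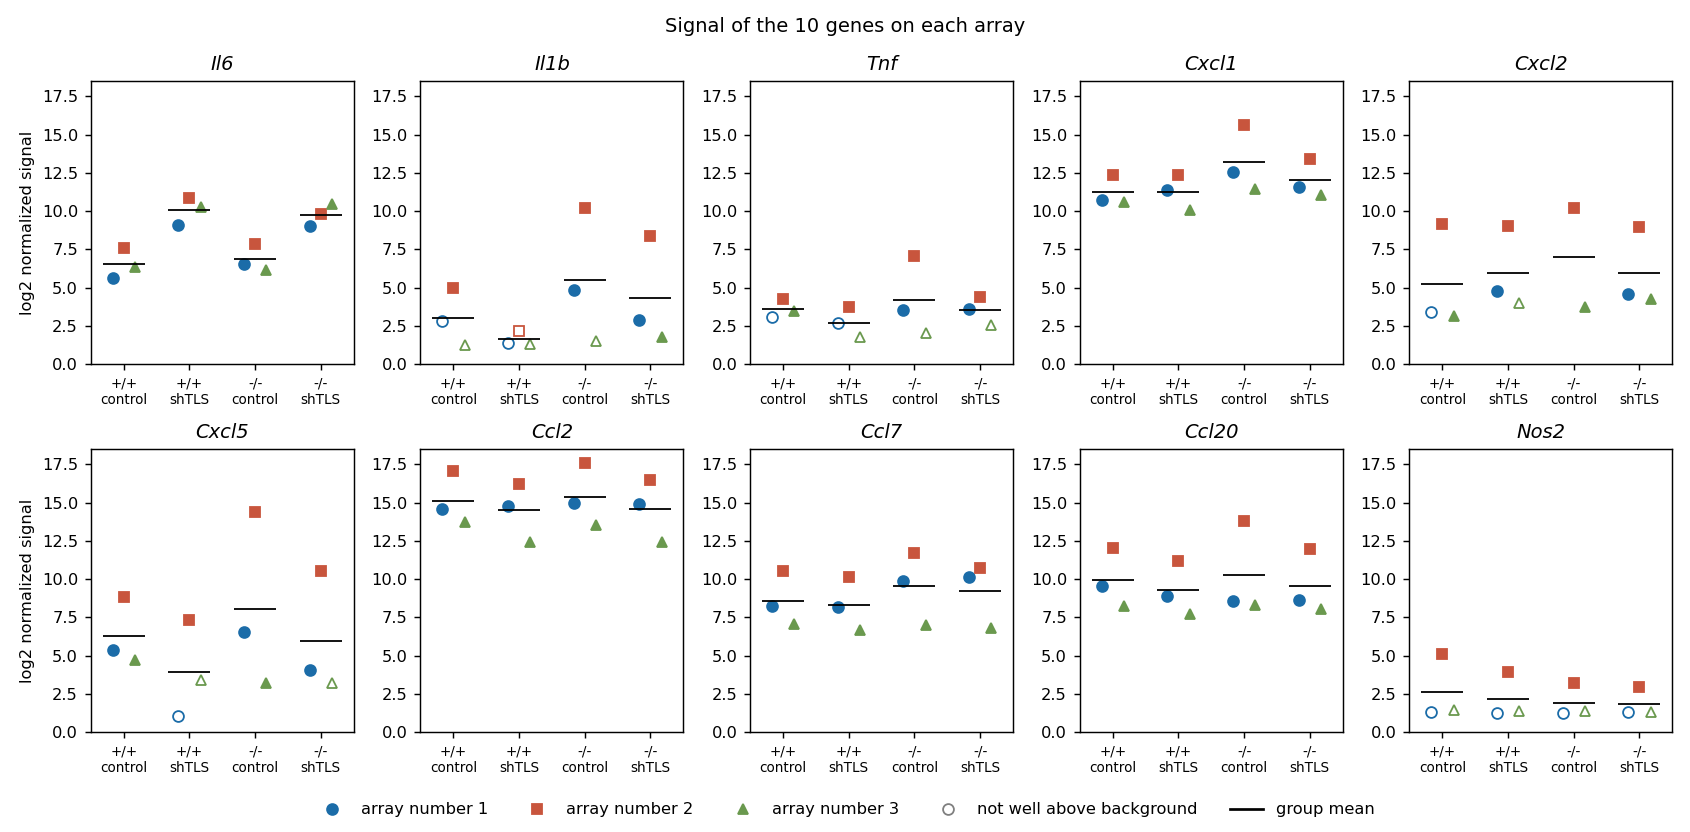
Log2 normalized signal of the 10 genes (y axis) in the 4 groups (x axis), 1 point per array, marked by array number, with the group mean as a line; open points were not well above background. Il6 stands at 5.61 to 7.86 on control and 9.01 to 10.85 on shTLS arrays, while most other genes are highest on the array of number 2 in every group.

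The other cytokines were near the limit of detection in most cultures. Il1b read 2.80, 4.99 and 1.26 in +/+ control and 1.40, 2.20 and 1.30 in +/+ shTLS cultures 1, 2 and 3, and among these 6 arrays only that of +/+ control culture 2 was well above background. In -/- cells it read 4.88, 10.18 and 1.51 under the control hairpin and 2.89, 8.35 and 1.77 with shTLS, well above background on 2 and 3 arrays. The Il1b signal of both -/- cultures of number 2 stood far above that of the other 10 arrays. Il1b entered the tests only through -/- shTLS cells, the 1 group with it well above background on all 3 arrays. Its comparison with +/+ shTLS cells, which had it on no array, is therefore not a separate test. The means were 4.34 and 1.63, and the difference was not called (limma adjusted p = 1.00). As a bound, the -/- shTLS mean was 5.33-fold above the dim side. The dim side is the mean, per array, of the higher of the probe's own value and the lowest signal called well above background. The flag did not follow the value throughout, as 1.77 was called well above background and 2.20 was not. A probe counted as well above background where any of its spots was, and Il1b had 10 spots. This bound rests on -/- shTLS culture 2, and without that array it was 1.33-fold.

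Tnf was well above background on 7 of 12 arrays and on all 3 arrays of no group, so it was not tested. It read 3.11, 4.29 and 3.50 in +/+ control and 2.68, 3.73 and 1.76 in +/+ shTLS cultures. In -/- cells it read 3.54, 7.06 and 2.04 under the control hairpin and 3.64, 4.42 and 2.53 with shTLS. The highest Tnf signal was that of -/- control culture 2, and number 2 was the highest array of each group. Nos2, also not tested, was well above background only on the 4 arrays of number 2, at 5.14 in +/+ control, 3.91 in +/+ shTLS, 3.18 in -/- control and 2.98 in -/- shTLS cells.

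Of the neutrophil chemokines, Cxcl1 read 10.72, 12.34 and 10.63 in +/+ control and 11.36, 12.33 and 10.06 in +/+ shTLS cultures 1, 2 and 3. The -/- cultures had Cxcl1 at 12.54, 15.60 and 11.47 under the control hairpin and 11.60, 13.43 and 11.04 with shTLS. Control and shTLS values overlapped in both genotypes, and shTLS minus control averaged -0.58 (SE 0.73, interval -2.18 to 1.02, limma adjusted p = 0.630). Cxcl2 read 3.43, 9.19 and 3.13 in +/+ control and 4.75, 9.05 and 3.98 in +/+ shTLS cultures. Of these, +/+ control culture 1 and +/+ shTLS culture 3 were not well above background. In -/- control cells the spot of culture 1, at 8.56, carried an outlier flag and was left out of the fit, cultures 2 and 3 read 10.23 and 3.73, and the 3 shTLS cultures read 4.61, 8.98 and 4.25. Culture 2 was the highest of each group, far above the others except for that flagged spot. The Cxcl2 average of -0.18 (SE 1.67, adjusted p = 0.956) had an interval from -3.86 to 3.50, and was -0.44 with the flagged spot kept.

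Cxcl5 had the widest spread within a group, 11.2 from lowest to highest in -/- control cells. It read 5.35, 8.83 and 4.71 in +/+ control cultures, and in +/+ shTLS cultures 1.03, 7.30 and 3.40, of which only the value of culture 2 was well above background. The -/- cultures read 6.56, 14.39 and 3.21 under the control hairpin and 4.07, 10.53 and 3.23 with shTLS, the last not above background. The shTLS culture had the lower Cxcl5 signal in 5 of 6 mice, but the average of -2.25 (SE 1.98, interval -6.61 to 2.11) was not called (limma adjusted p = 0.479, and 0.0843 with the replicate block). Both arrays were well above background only in +/+ mouse 2 and -/- mice 1 and 2. Cxcl5 entered the tests only through the control groups, where it was higher. Its comparison between hairpins is therefore not a separate test.

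The monocyte chemokine Ccl2 read 14.56, 17.06 and 13.71 in +/+ control and 14.77, 16.24 and 12.44 in +/+ shTLS cultures. Ccl2 in -/- cells read 14.95, 17.56 and 13.52 under the control hairpin and 14.88, 16.50 and 12.42 with shTLS. The order of the cultures was 2, 1, 3 in each of the 4 groups, and the spread between cultures of a group (3.35 to 4.08 from lowest to highest) was larger than any difference within a mouse (-1.26 to 0.21). Its average of -0.69 (SE 0.97, interval -2.82 to 1.45, limma adjusted p = 0.672) was called with the replicate block (adjusted p = 0.0494) and not with the mouse as a block (adjusted p = 0.312). Ccl7 read 8.22, 10.53 and 7.04 in +/+ control and 8.15, 10.17 and 6.67 in +/+ shTLS cultures. Ccl7 in -/- cells read 9.87, 11.70 and 6.99 under the control hairpin and 10.16, 10.70 and 6.82 with shTLS. Both Ccl7 probes had the cultures in the order 2, 1, 3 in each group, and their averages were -0.28 (SE 1.01) and -0.50 (SE 0.95), neither called (adjusted p 0.878 and 0.758).

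Ccl20 read 9.58, 12.001 and 8.25 in +/+ control and 8.87, 11.19 and 7.73 in +/+ shTLS cultures. The -/- cultures read 8.58, 13.80 and 8.32 under the control hairpin and 8.61, 11.95 and 8.02 with shTLS. Culture 2 was again the highest and culture 3 the lowest of each group, and the Ccl20 average of -0.69 (SE 1.14, interval -3.19 to 1.81) was not called (limma adjusted p = 0.719).

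**Figure D2:**
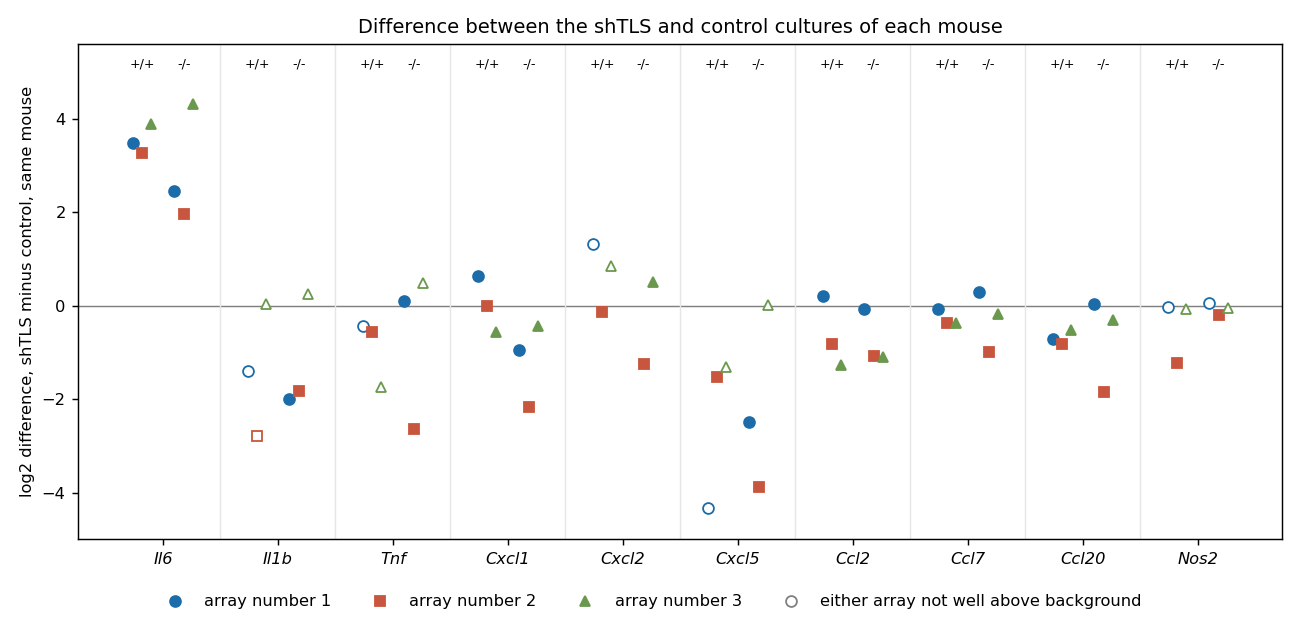
Log2 signal of the shTLS culture minus that of the control culture of the same mouse (y axis) for each gene (x axis), 1 point per mouse, +/+ left and -/- right, with open points where either array was not well above background. Il6 lies at 1.96 to 4.32 in all 6 mice, while the points of each other gene lie at or below 1.33.

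By counts, 1 of the 8 tested members was called for shTLS in +/+ cells, Il6, against 0.997% of all tested probes. In -/- cells 0 of 8 were called by limma against 0.777% (1 at an unadjusted p under 0.05, beside 2949 of the 24981 tested probes). With the replicate block 1 of 8, Il6, was called against 5.97%. Averaged over genotypes 1 of 8 was called against 7.79%, and 2 of 8 (Il6 higher and Ccl2 lower) with the replicate block against 28.8%. The median of the 8 average differences was -0.63, beside -0.02 over all tested probes, and 7 of the 8 were negative, all but that of Il6 (6 of 8 with 75th percentile scaling or a block, where Cxcl2 turned positive). These comparisons share their arrays with the average, so that they are not separate evidence. Of the negative averages, that of Cxcl5 belongs to a gene that entered the tests only through control groups. For the difference of the shTLS effect between genotypes 0 of 8 members were called by limma, as were 0 of all probes. An unadjusted p under 0.05 was reached by 0 of 8, beside 64 of all tested probes.

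Between genotypes no member was called. With the control hairpin the mean of all 8 tested members was higher in -/- cells, by 0.23 to 2.51 (6 of 8 without the arrays of number 2). However, limma called 0 of 8 against 0.0801% of all probes, with 0 at an unadjusted p under 0.05, beside 784 of 24981 probes. Under the replicate block 0 were called and 1 was at such a p, beside 2141 probes. With shTLS 7 of 8 were higher in -/- cells (6 of 8 with 75th percentile scaling or normexp) and 0 of 8 were called against 0.0721%. An unadjusted p under 0.05 was reached by 0 of 8, beside 545 probes, and under the replicate block by 1, beside 1766 (0 called). Il1b and Cxcl2 entered the tests through -/- groups only, as no +/+ group had either well above background on all 3 arrays. Cxcl1 was higher in -/- cells by 1.98 with the control hairpin (SE 1.03, interval -0.29 to 4.25) and by 0.78 with shTLS (SE 1.03, interval -1.49 to 3.04). With single arrays left out these ranged from 0.78 to 2.85 and from 0.074 to 1.32. The Il1b difference with the control hairpin, 2.51, had an interval from -2.08 to 7.10 and ranged from 0.18 to 4.51 with single arrays left out. The macrophage markers described below went the same way: all 16 tested were higher in -/- cells with either hairpin. Their median difference was 2.24 with the control hairpin (0 called by limma, 1 at an unadjusted p under 0.05). It was 1.48 with shTLS (0 called, 0 at an unadjusted p under 0.05). This direction was not particular to macrophages. With the control hairpin and with shTLS, 8 and 8 of 9 stellate and fibroblast markers were higher in -/- cells. So were 8 and 9 of 10 endothelial and 4 and 3 of 4 neutrophil markers. The remaining lists were mixed or mostly lower, with 4 and 1 of 8 hepatocyte markers higher. For cholangiocyte markers it was 1 and 1 of 5, and for T and B cell markers 2 and 1 of 3. The part of any of these cells in the members' values was not tested.

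The number of the culture set most members apart. A term for the number in the blocked fit, tested after this pattern had been seen, was called for all 8 tested members (limma adjusted p 0.00111 to 0.0397) against 27.8% of all probes. Culture 2 was the highest in 4 of 4 groups for Il1b, Cxcl1, Cxcl2, Cxcl5, Ccl2, Ccl7 and Ccl20, and in 3 of 4 for Il6. Culture 3 was the lowest in 4 of 4 groups for Il1b, Cxcl1, Cxcl2, Ccl2, Ccl7 and Ccl20, in 3 of 4 for Cxcl5 and in 1 of 4 for Il6. Averaged over its arrays, Cxcl2 stood at 9.36 in cultures of number 2, against 3.77 in those of number 3 and 4.27 in those of number 1, a mean of 3 arrays that became 5.34 with the flagged spot kept (adjusted p of the number 0.00111, and 0.00514 with that spot, a fit chosen after seeing the data). For Cxcl5 the means over the 4 groups of numbers 2, 1 and 3 were 10.26, 4.25 and 3.64, and for Ccl20 12.24, 8.91 and 8.08. For Il6 they were 9.03, 7.57 and 8.30, a smaller spread than between hairpins. Across the 12 arrays, which share mice and slides, the members other than Il6 correlated with each other by 0.775 to 0.938 (21 pairs), and Il6 with them by -0.03 to 0.31 (7 pairs).

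**Figure D3:**
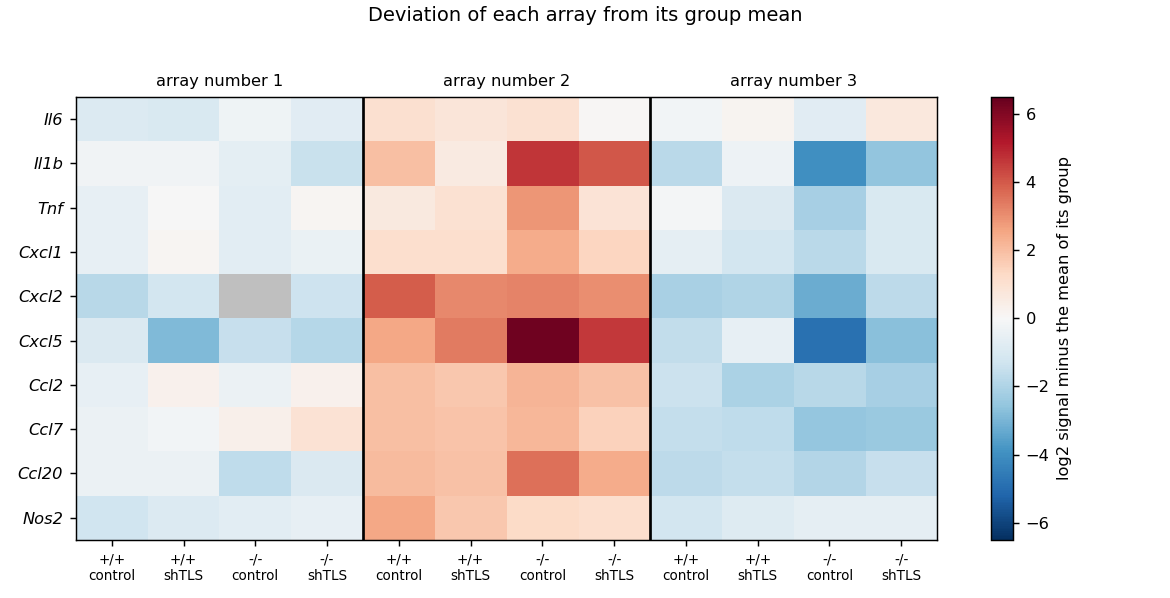
Log2 signal of each array minus the mean of its group (colour) for the 10 genes (rows) on the 12 arrays (columns), ordered by array number; grey is the spot left out for its flag. The 4 arrays of number 2 lie above their group mean for the chemokines, Il1b, Tnf and Nos2, in both genotypes and with both hairpins.

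Other genes of the pathway were counted in the same way. Of 47 tested receptors and signalling genes limma called 0 for shTLS in the average over genotypes without a block, against 7.79% of all probes. An unadjusted p under 0.05 was reached by 13 of the 47, beside 6989 of the 24981 tested probes. With the replicate block 7 were higher and 4 lower, against 28.8%, and with the mouse as a block 7 were higher and 7 lower, against 37.6%. Those called as higher with the replicate block were Il6ra, the adaptor gene Traf2, the kinase gene Map3k7, the NF-kappaB subunit gene Rel, the NF-kappaB inhibitor gene Nfkbib, Zfp36, which encodes an mRNA decay factor, and the AP-1 gene Fos, by 0.51 (Traf2) to 1.20 (Il6ra). On spike-in scaling Il6ra (0.42) and Rel (0.28) stayed above 0 and the other 5 turned to between -0.34 and -0.02. Rel was well above background on only 9 arrays, so its difference includes values not well above background. Those called as lower were the receptor genes Il1r1 (-0.87) and Tnfrsf1a (-0.78) and the IkappaB kinase subunit genes Ikbkb (-0.38) and Ikbkg (-0.75), which were also below 0 with 75th percentile and spike-in scaling. Il6ra, the Il6 receptor subunit, differed by 1.20 without a block (SE 0.40, limma adjusted p = 0.0827, and 0.00046 with the replicate block), by 0.42 with spike-in scaling (adjusted p = 0.271) and by 0.60 with normexp (adjusted p = 0.127). Il6st (-0.16, adjusted p = 0.687), Stat3 (-0.04, 0.935) and the Stat3 target Socs3 (0.36, SE 0.18, 0.224) were not called; scaled on spike-ins, Il6st and Stat3 were called as lower (-1.06 and -0.90) and Socs3 turned to -0.49. Of the NF-kappaB inhibitors, Nfkbia differed by -0.04 (SE 0.39) and Tnfaip3 by -0.39 (SE 0.89), and of the lipopolysaccharide receptor genes Tlr4 by -0.81 (SE 0.33) and Cd14 by -0.71 (SE 0.38), with none of the 4 called (adjusted p 0.139 to 0.956; Tlr4 was called as lower with the mouse as a block, at 0.0392, and Tlr4 and Cd14 when scaled on spike-ins, on which the median over all probes was also below 0). Nfkb1 was not analysed here, as no probe matched it. Of 17 other inducible genes 1 was called, as lower, against 7.79% of all probes. It was Hp, which encodes the acute phase protein haptoglobin (-1.08, SE 0.29, adjusted p = 0.0481). With either block 2 of the 17 were called as lower, Hp and Il15, against 28.8% (replicate) and 37.6% (mouse) of all probes. Il15, a cytokine gene, was at -1.60 (SE 0.64), not called without a block (adjusted p = 0.134). It was called as lower with the replicate block (adjusted p = 0.000696) or the mouse as a block (0.0046). Il15 was well above background on only 8 arrays, so its difference includes values not well above background. The call of Hp was lost without number 2 (adjusted p = 0.193), with 75th percentile scaling (-0.56, adjusted p = 0.198), or without any 1 of 9 arrays (all but -/- control 3 and +/+ control 2 and 3).

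Among 21 other chemokines and chemokine receptors 4 rose with shTLS in the average and 0 fell, against 7.79% of all probes called. With the replicate block 5 were called as higher, the fifth being the interferon-inducible chemokine gene Cxcl9 (1.23, adjusted p = 0.0310, and 0.0518 without a block), and 2 as lower, Cxcl3 (-1.85, adjusted p = 0.0444) and Ccl9 (-0.76, adjusted p = 0.0240). With the mouse as a block 6 were called as higher, with Cxcl9 and Ccl19, and 0 as lower. Ccl5, a chemokine for T cells and monocytes, rose by 2.83 (SE 0.42, limma adjusted p = 0.00387). Cxcl10, an interferon-inducible chemokine, rose by 1.87 (SE 0.42, adjusted p = 0.0245), Ccl25 by 1.23 (SE 0.28, adjusted p = 0.0283) and Ccr6, the receptor of Ccl20, by 1.59 (SE 0.40, adjusted p = 0.0371). With spike-in scaling the averages of these 4 genes were 1.99, 1.00, 0.40 and 0.94, and Cxcl10 and Ccl25 lost their calls. Ccl5 kept its call with each array left out (adjusted p 0.00192 to 0.0147) and without the arrays of number 2 (adjusted p = 0.0420). Cxcl10 lost it without number 2 (adjusted p = 0.0962) or without control array 1 of either genotype or -/- shTLS array 2. Ccl25 lost it without number 2 (adjusted p = 0.168) or 1 of 5 arrays (control 1 of either genotype, -/- control 2, or shTLS 3 of either genotype). Ccr6 lost it without number 2 (adjusted p = 0.212) or 1 of 8 arrays (all but -/- control 3, -/- shTLS 1, +/+ control 2 and +/+ shTLS 1). Ccr6 was well above background on only 8 arrays and Cxcl3 on only 9, so their differences include values not well above background. Between genotypes limma called 0 genes of these lists, with a block or without, with the control hairpin or with shTLS. Without a block 4 and 1 of their genes were at an unadjusted p under 0.05, beside 784 and 545 of the 24981 probes.

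The number of the culture was called for 20 of the 47 receptors and signalling genes, 14 of the 17 other inducible genes and 8 of the 21 other chemokines and receptors, against 27.8% of all probes. Culture 2 was the highest in 4 of 4 groups for 12 of the 47, 6 of the 17 and 5 of the 21, against 6.16% of all tested probes. Among these were the chemokine genes Cxcl3, Cxcl16, Ccl3 and Ccl9, the growth factor gene Csf2 and the prostaglandin synthase gene Ptgs2. Of the listed genes of the feedback on NF-kappaB and on inflammatory mRNA, Nfkbia, Nfkbie, Nfkbiz, Tnfaip3 and Tnip1 were highest in culture 2 in 4 of 4 groups, Zfp36 in 3, and Nfkbib and Bcl3 in 2. All of these but Zfp36 (adjusted p = 0.101) were called for the number. Apart from Nfkbia and Tnfaip3, these examples were chosen after their values were seen. Ccl5 and Cxcl10 were not called for the number (adjusted p 0.128 and 0.122).

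The genes whose pattern over the 12 arrays was most like that of Il6, by Pearson's r with its probe, were none of the listed chemokines. They were Adora2a, an adenosine receptor gene (r = 0.968), Sprr2b, which encodes a small proline-rich protein (0.963), Calr4 (0.962), Mamdc2 (0.959) and Map6, which encodes a microtubule-associated protein (0.957). Adora2a lay at 8.96 to 9.52 on the 6 control and 10.18 to 10.81 on the 6 shTLS arrays, and Sprr2b at 8.45 to 9.08 and 10.26 to 11.15. All 5 were called in the average over genotypes, against 7.79% of all probes, by differences of 1.31 (Adora2a) to 4.00 (Mamdc2). As they were picked for their likeness to Il6 on these same arrays, their calls are not separate evidence. Calr4 was well above background on 9 of 12 arrays. Without number 2, Adora2a (adjusted p = 0.0848) and Map6 (adjusted p = 0.0548) lost their calls, and Adora2a also with spike-in scaling (0.41, adjusted p = 0.158). As the control and shTLS arrays form 2 separate ranges, r mainly reflects that separation.

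Of 19 macrophage and Kupffer cell markers 18 were on the array, 16 were tested and 12 of these were called for the number of the culture, beside 27.8% of all probes. Their summed normalized signal was 15121, 3760 and 6269 in +/+ control cultures 1, 2 and 3 and 6842, 4505 and 5065 in +/+ shTLS cultures. In -/- cells it was 71043, 82948 and 7513 under the control hairpin and 31280, 9888 and 5661 with shTLS. In +/+ cells culture 2 thus had the lowest macrophage marker signal of its group, while Cxcl1, Cxcl2, Cxcl5, Ccl2, Ccl7 and Ccl20 were highest there. The -/- control culture 2 had both the highest marker sum and the highest signal of these 6 chemokines and of Il1b and Tnf. By the median log2 signal of the same markers, -/- control culture 1 stood higher, at 10.65 against 9.96 in culture 2. Between genotypes all 16 were higher in -/- cells, as given above. For shTLS, 15 of the 16 were lower in the average, with 0 called by limma without a block. At an unadjusted p under 0.05 was 1, beside 6989 of the 24981 probes. With the replicate block 3 were called as lower (Clec4f, Marco and Cd5l, against 28.8%). Of these, Clec4f was well above background on only 8 arrays. The sum was lower in the shTLS culture of 5 of 6 mice. In the remaining mouse, +/+ number 2, the median was lower with shTLS (4.78 against 5.36), though the sum was not. The part of macrophages in the values of Il6 and of the other members was not tested.

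**Figure D4:**
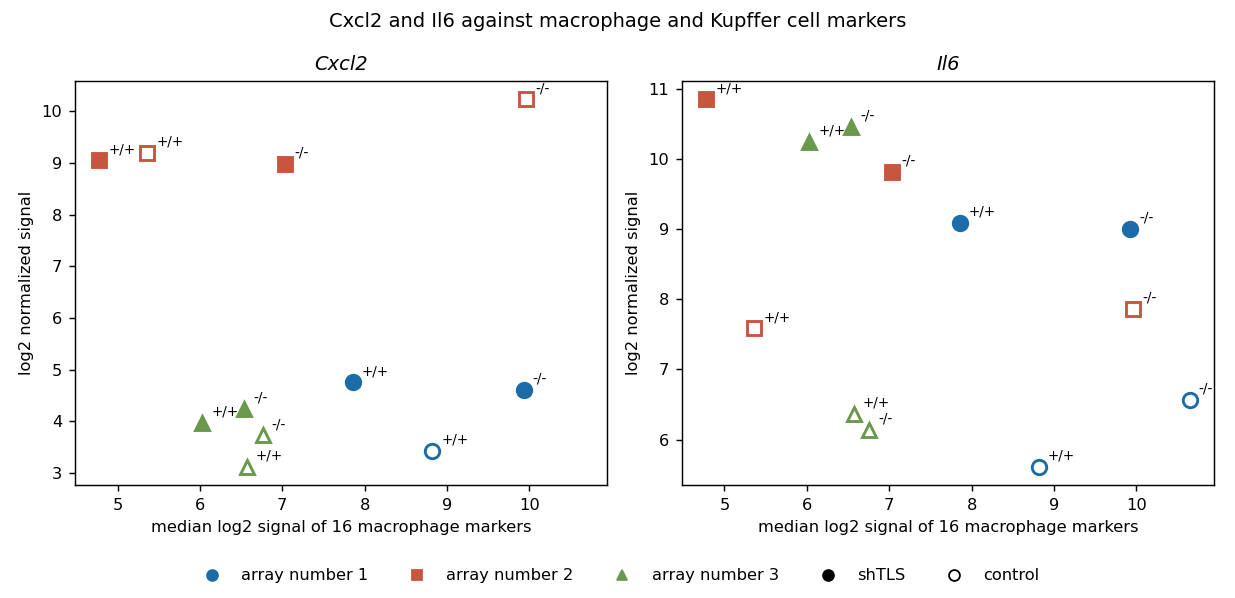
Log2 normalized signal of Cxcl2 (left) and Il6 (right) on each array (y axis) against the median log2 signal of the 16 tested macrophage markers (x axis), marked by array number, genotype and hairpin (filled, shTLS). The +/+ arrays of number 2 have the lowest macrophage medians, 5.36 and 4.78, with Cxcl2 at 9.19 and 9.05, and Il6 is higher on shTLS than on control arrays over the whole range.

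Of 10 neutrophil markers 9 were on the array and 4 were tested. Their summed signal was 199 to 1061 on the arrays of number 2, 78.1 to 346 on those of number 1 and 35.3 to 293 on those of number 3, and 1 of the 4 was called for the number, S100a8, which was highest in culture 2 in 4 of 4 groups. S100a9 and Mpo were highest there in 2 groups and Ltf in 1. The neutrophil gene Elane was well above background on 0 of 12 arrays. The stellate and fibroblast markers summed to 20863 to 72372 on arrays of number 1, 19701 to 22139 on those of number 2 and 11570 to 15506 on those of number 3, the lowest, and 7 of 9 tested were called for the number. Of the hepatocyte markers 1 of 8 was called for the number, of the endothelial markers 2 of 10, of the cholangiocyte markers 2 of 5, and of the T and B cell markers 2 of 3, beside 27.8% of all probes. Between genotypes limma called 0 markers of any of these lists, with either hairpin (0 at an unadjusted p under 0.05 without a block, beside 784 and 545 of all tested probes). For shTLS in the average, Cd3e of the T and B cell list rose by 1.099 (SE 0.27, limma adjusted p = 0.0332), and no other marker of these lists was called without a block. Of the hepatocyte markers 7 of 8 were lower with shTLS (median -0.68; 6 of 8 with 75th percentile and 8 of 8 with spike-in scaling), and Fah was called as lower with the replicate block (-1.27, adjusted p = 0.00852). The cholangiocyte markers Krt19 (-2.11, adjusted p = 0.0140) and Krt7 (-1.26, adjusted p = 0.0197) were also called as lower with that block. Fah, Krt19 and Krt7 were called with the mouse as a block too, as was the endothelial marker Vwf (1.91, adjusted p = 0.0395). Cd3e lost its call without number 2 (adjusted p = 0.196), with spike-in scaling (adjusted p = 0.109), or without 1 of 6 arrays (control 1 or shTLS 3 of either genotype, -/- control 2 or -/- shTLS 2). The part of these cells in the Il6 and chemokine values was not tested.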

How the data were processed

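Total RNA of 12 hepatocyte cultures was labelled and hybridized to 1-colour Agilent arrays, 4 to a slide on 3 slides, all scanned on 1 day. The submitters' processing notes name Agilent Feature Extraction 10.1.1.1, and limma without a version. The authors' deposited table holds log2 values, which per the labels' design text were floored at a signal of 1 and quantile normalized; these are the values used. Each spot's intensity, per the file headers, was background-subtracted within its array by the authors. Other deposited columns flag detection over background, uneven or outlying spots, and saturation (0 spots). A probe counted as well above background on an array where any of its spots was. Il6, Il1b, Tnf, Ccl2 and Nos2 had 10 spots each. Log2 values recomputed from the intensities correlated with the deposited table by at least 0.99997 per array.

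Per array 74 to 206 spots were flagged as non-uniform or outlying. A probe's deposited value was set to missing where all of its spots carried such a flag. Tests were limited to the 24981 probes that 1 group or more had above background on its 3 arrays and that kept at least 2 values per group; 8 of the 10 genes passed. Symbols came through RefSeq accessions from GRCm38.p6 (24375 probes matched, 16799 did not); the array files name another build, so no gene coordinates of that assembly are given beside the promoter windows. A gene is shown by its brightest tested probe. limma 3.58.1 (R 4.3.3, and statmod 1.5.0 for the random block) fitted 4 group means over 12 arrays (8 residual degrees of freedom), with moderated two-sided tests and Benjamini-Hochberg adjustment over all tested probes, called at an adjusted p under 0.05. The fit was checked on simulated data with independent arrays, which does not cover arrays that deviate together. Arrays of the same number deviated together (correlations of 0.218 to 0.673 over 18 pairs of arrays), and the labels tie the number to the mouse, so values with the replicate number as a block are given where they change a member's call or, in the average over genotypes, that of a listed gene. Fits with the mouse as a random block had a correlation within mice of 0.585. With 3 against 3 arrays an exact permutation test of 1 gene cannot go below p = 0.1. The number of arrays limits the precision.

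The 10 genes, the pathway lists (receptors and signalling, other inducible genes, other chemokines and receptors) and the lists of cell type markers were chosen with earlier results of these data known. Named beside the 10 genes are called genes of the pathway lists, 9 pathway genes called or not, Ppargc1a and the 5 genes most like Il6; listed genes called only with a block, and the examples for the culture number, were chosen after their values were seen. Left out are coordinates of the array's own build and probe sequences, which were not used here, and the level of the hairpin's target and the values of 1 marker, which are not reported here.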

Additional observations from a re-analysis of the deposited data

How the results depend on the processing

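Under other settings 307 values of members were followed, and 276 kept their direction and their side of the threshold. They covered all comparisons of Il6 and the average over genotypes of the other tested members except Il1b. They also covered the genotype differences of Cxcl1 with either hairpin and of Il1b with the control hairpin. Other comparisons of these members and the second Ccl7 probe were not among them. The settings were recomputed values, scaling on the 75th percentile or on spike-ins, normexp, other filters, kept flagged spots, 1 probe per gene, only the groups compared, the replicate block, the mouse as a block, each array left out and, chosen after seeing the data, all arrays of number 2 left out. With the replicate block the members called were 1 in -/- cells (0 without it) and 2 in the average (1 without it), and the mouse as a block gave 1 in -/- cells; the pairing changed no other call of a member. In +/+ cells the 1 called member, Il6, became 0 with no filter on background, with only the groups compared and without the arrays of number 2, and 0 to 1 with single arrays left out; fewer samples or more probes entered these fits. Leaving out single arrays left 0 in -/- cells and 1 in the average. The adjusted p of Il6 in +/+ cells ranged from 0.000723 to 0.206 over the settings. The Cxcl2 average of -0.18 turned to 0.083 with 75th percentile scaling, 0.18 with the replicate block, 0.018 with the mouse as a block and 0.89 without the arrays of number 2, and ranged from -1.80 to 1.45 with single arrays left out. Il6 between genotypes with shTLS turned to 0.063 without number 2. With single arrays left out the averages of Cxcl1 (-1.01 to 0.020), Ccl20 (-1.30 to 0.20) and Ccl7 (-0.91 to 0.32) also changed sign, as did Il6 between genotypes (-0.17 to 0.86 with the control hairpin and -0.79 to 0.093 with shTLS); the cause was not tested. Of the pathway genes, Nfkbia turned to 0.089 and Stat3 to 0.018 with 75th percentile scaling, Socs3 to -0.49 with spike-in scaling and Nfkbia to 0.24 without number 2. With single arrays left out Nfkbia ranged from -0.23 to 0.25, Stat3 from -0.20 to 0.051 and Tnfaip3 from -0.84 to 0.16. Ccr6 (normexp, adjusted p = 0.0519, and no filter, 0.0671), Hp (recomputed values, 0.0501, and no filter, 0.0710) and Cd3e (normexp, 0.0705) also lost their calls.

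Over all probes the 249 calls in +/+ cells became 382 with 75th percentile scaling, 5354 with spike-in scaling, 134 with normexp, 119 with detection on all 12 arrays, 49 with only the groups compared, 3134 with the replicate block, 4902 with the mouse as a block and 0 without number 2. The 194 in -/- cells became 118 with normexp, 97 with detection on all arrays, 1492 with the replicate block, 2790 with the mouse as a block and 0 without number 2. The 1947 in the average became 13841 with spike-in scaling, 7207 with the replicate block, 9389 with the mouse as a block and 149 without number 2. Of these calls, 207 of 249, 185 of 194 and 1132 of 1947 were higher with shTLS, against 274 of 5354, 113 of 189 and 689 of 13841 with spike-in scaling and 1764 of 2388 in the average with 75th percentile scaling. Single arrays left out gave 107 to 323, 100 to 232 and 728 to 2444. Between genotypes, 20 calls with the control hairpin became 4 to 43 and 18 with shTLS became 3 to 39 over these settings.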
